A study of Mus musculus with 6 samples.

Results

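The genes described here encode the paired forms of a cytochrome c oxidase subunit (Cox4i1 and Cox4i2) and of its partner NDUFA4 (Ndufa4 and Ndufa4l2), a pair of HIGD proteins (Higd1a and Higd2a), the mitochondrial LON protease (Lonp1) and the iron-sulfur scaffold protein ISCU (Iscu). They were chosen by name, as every probe set that the array's annotation assigns to one of these 8 genes. This gave 10 probe sets, of which 3 belonged to Higd1a and 1 to each of the other 7 genes, among 45037 probe sets on the array. The measurements come from HL-1 cells, a line of beating cardiomyocytes from a mouse atrial tumour that carries a viral oncogene, so all samples share that transformed background. Confluent cultures were held for 8 hours at 1% oxygen (hypoxia, 3 arrays) or at 21% oxygen (normoxia, 3 arrays), with no other treatment in either group. Nothing in the labels says whether the 3 samples of a group were separate cultures, and if they were not, the p-values reflect technical spread alone.

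Cytochrome c oxidase, or complex IV, passes electrons to oxygen at the end of the respiratory chain. COX4 is one of its nuclear-encoded subunits, and in cultured human cells low oxygen is known to favour COX4I2 over COX4I1, with LONP1 degrading the latter, under control of the transcription factor HIF-1. NDUFA4 was first assigned to complex I and is now counted as a subunit of complex IV; NDUFA4L2 is a known HIF-1 target that restrains oxygen consumption. HIGD1A and HIGD2A are small inner-membrane proteins that bind complex IV or help it assemble, and ISCU is the scaffold on which iron-sulfur clusters for the respiratory chain are built. The comparison asks whether the transcripts of this remodelling program differ between low and normal oxygen in an atrial muscle line.

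All 6 arrays shared a trimmed mean signal of 99.5. MAS5 signals are scaled to a common value, so this equality is no measure of how alike the arrays were. Median signals lay between 15 and 19, and the lowest correlation between any pair of arrays was 0.887 on the log2 scale. All 10 listed atrial cardiomyocyte markers lay above the filter on low signal (a geometric mean of 14.1 over the 6 arrays). Of the 10, 0 passed the test of change (limma, adjusted p under 0.05). An unadjusted p under 0.05 was found for 2, Nppa and Sln, against 12.4% of all genes. Both were higher in hypoxia (log2 fold change 0.76 and 0.88). Myl7 and Ryr2 were also above 0, and the other markers were below 0, the lowest being Gata4 at -0.46. These markers were named after their values were seen. The summed signal of the 10 markers, to which the bright ones contribute most, ranged from 26800 to 29200 in hypoxia and from 27300 to 30500 in normoxia. These are bulk RNA extracts, in which fewer cells with a transcript and less of it per cell cannot be told apart.

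Of the 8 genes, only Higd1a passed the test, and it rose on all 3 of its probe sets. The main isoforms Cox4i1 and Ndufa4 and the second HIGD gene, Higd2a, lay at 104%, 107% and 96.9% of their normoxic level, with intervals that reach at most 0.31 from 0 on the log2 scale. The hypoxia-associated isoforms Cox4i2 and Ndufa4l2 had signals below the filter. Lonp1 was higher and Iscu lower in hypoxia by amounts that did not pass. In counts, 8 of the 10 probe sets, from 6 genes, were above the filter; 3 of these 8 rose and 0 fell, where 0.533% of the 22518 probe sets tested rose and 0.0755% fell. Counted by gene, 1 of 6 rose and 0 fell, against 0.662% and 0.0882% of 11332 genes.

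**Figure D1:**
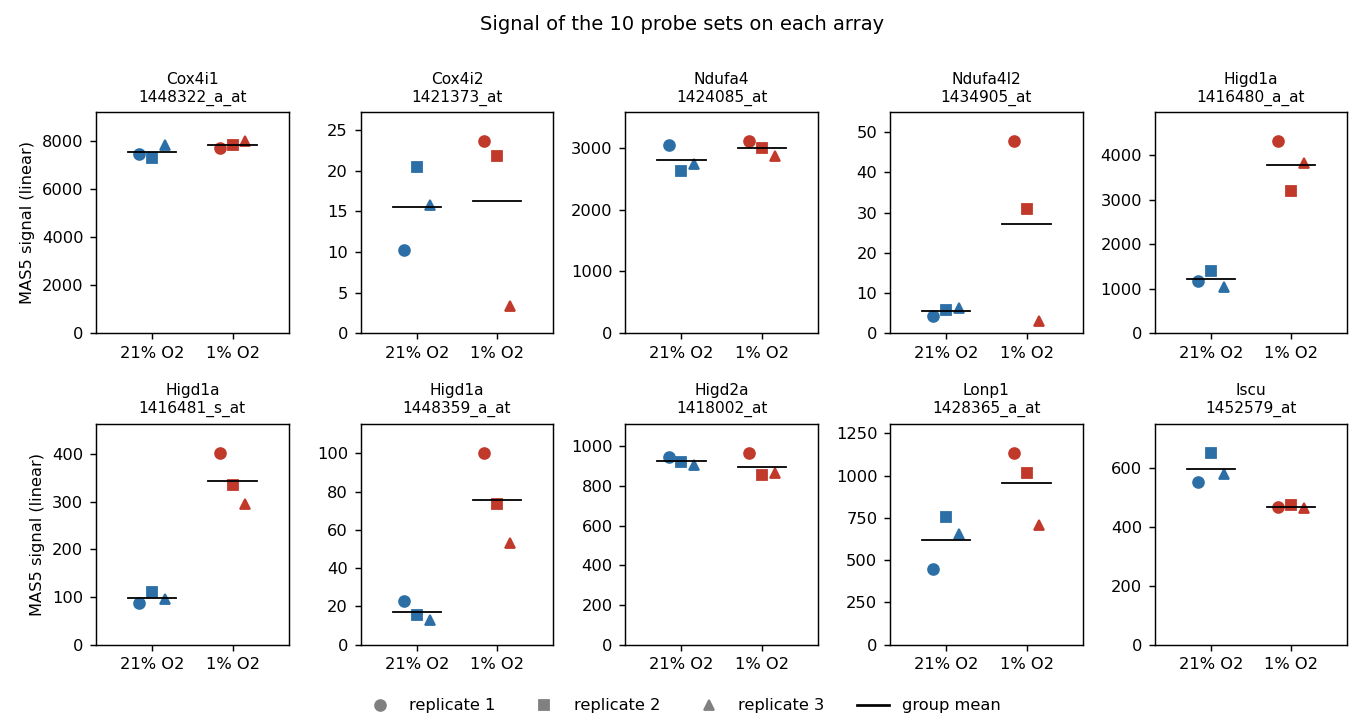
Deposited MAS5 signal (linear scale, each panel with its own axis from 0) of the 10 probe sets on the 3 normoxia arrays (21% O2, blue) and the 3 hypoxia arrays (1% O2, red); marker shape gives the replicate number and the black bar the group mean. The 3 Higd1a panels show separated groups, Cox4i1, Ndufa4 and Higd2a show level ones, and in the Cox4i2 and Ndufa4l2 panels hypoxia replicate 3 lies far below the other hypoxia arrays.

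Higd1a encodes a protein named for its induction by hypoxia, which binds complex IV and is known to raise its activity. On its brightest probe set, 1416480_a_at, the signal was 4317, 3210 and 3832 on hypoxia replicates 1, 2 and 3, and 1181, 1411 and 1039 on the normoxia arrays. The lowest hypoxia array was thus well above the highest normoxia array, a separation that 7.48% of all probe sets tested showed in this direction. The rise was 3.13-fold (log2 fold change 1.65, SE 0.15, 95% interval 1.32 to 1.97, limma adjusted p = 0.00123), the 12th smallest p of all 22518 probe sets tested.

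The second probe set, 1416481_s_at, read 403, 334 and 295 in hypoxia against 88.2, 110 and 96.5 in normoxia. Its fold of 3.49 (log2 1.80, SE 0.17, adjusted p = 0.00154) lay inside the interval of the first. The third, 1448359_a_at, gave a dim signal of 100.5, 73.6 and 53.1 in hypoxia and 22.9, 15.6 and 12.7 in normoxia, again without overlap. It had the largest estimate, 4.42-fold (log2 2.15, SE 0.33, adjusted p = 0.0207), and the widest interval, 1.41 to 2.89 on the log2 scale, which takes in both other estimates.

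The order of the hypoxia arrays differed between these probe sets: replicate 1 was highest on all 3, while replicate 2 was lowest on the brightest probe set and replicate 3 on the others. The first 2 probe sets passed in each of the 6 fits with 1 array left out, with adjusted p up to 0.0163 and 0.0215. The dim probe set passed in 2 of these 6 and failed in the other 4, with adjusted p of 0.168 and 0.102 when hypoxia replicate 1 or 2 was omitted and of 0.0721 and 0.0911 when normoxia replicate 2 or 3 was. With a variance model that ignores signal level, the brightest probe set missed the threshold (adjusted p = 0.055), as did the dim one (0.101), while the second still passed (0.043). Over all alternatives the adjusted p of the brightest ranged from 0.000143 to 0.055.

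**Figure D2:**
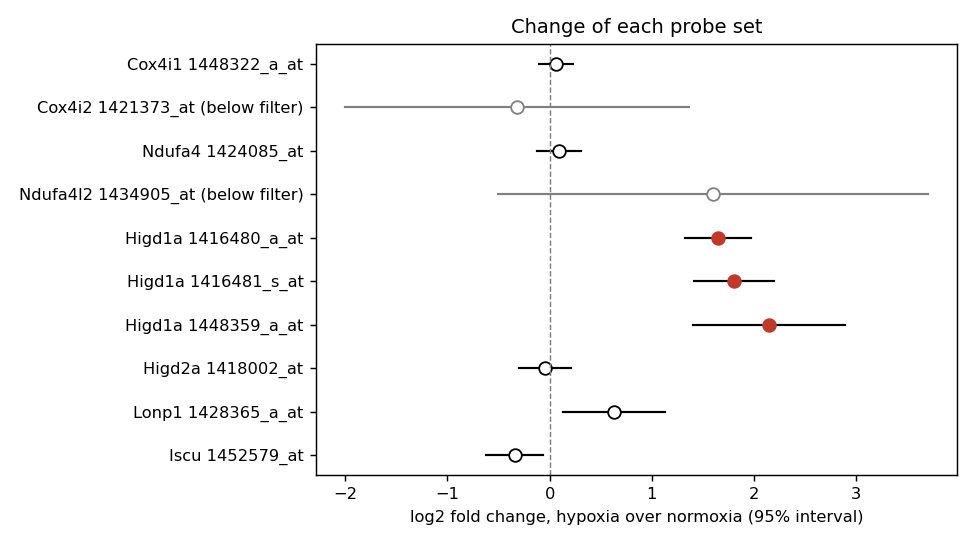
Log2 fold change of hypoxia over normoxia for each probe set, with its 95% interval (limma, unadjusted). Filled red points passed at an adjusted p under 0.05, open points did not, and grey points lie below the signal filter and come from a fit without it. Only the 3 Higd1a probe sets are filled, at 1.65, 1.80 and 2.15, and the intervals of Cox4i2 and Ndufa4l2 are the widest.

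Higd2a, whose product takes part in assembling complex IV and respiratory supercomplexes, gave signals of 969, 857 and 863 in hypoxia and 948, 919 and 906 in normoxia. The groups overlapped. Its log2 fold change was -0.046 (SE 0.11, 95% interval -0.30 to 0.21, adjusted p = 0.912). Within each array, the log2 ratio of Higd1a over Higd2a was 2.07 ± 0.14 under hypoxia against 0.38 ± 0.22 under normoxia (mean ± SD of 3 arrays, as for all values given with ±), a difference of 1.69 on the log2 scale. Such a ratio between probe sets shows unequal change of the 2 genes and not which of them is more abundant. The ratios of the groups did not overlap, and the exact permutation test (two-sided) gave p = 0.1, the smallest that 3 against 3 arrays allow (0.3 adjusted over the 3 isoform pairs).

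A promoter sequence from RefSeq (build GRCm38.p6) was at hand for 4 of the 8 genes: Higd1a, Higd2a, Lonp1 and Ndufa4. The core of the element that HIF binds is ACGTG or GCGTG, and both were searched on both strands in the 250 bases before the transcription start. Higd1a and Higd2a are shown because the first rose and the second did not pass, with matches in capitals and each sequence read 5′ to 3′ along the gene's strand. The Higd1a window is chr9:121857797-121858046 on the minus strand and the Higd2a window chr13:54589981-54590230 on the plus strand.
Higd1a: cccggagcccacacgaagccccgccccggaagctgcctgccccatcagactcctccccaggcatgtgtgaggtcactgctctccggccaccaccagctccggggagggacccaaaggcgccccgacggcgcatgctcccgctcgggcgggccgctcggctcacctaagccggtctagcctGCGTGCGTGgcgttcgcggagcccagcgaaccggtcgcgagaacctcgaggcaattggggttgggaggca
Higd2a: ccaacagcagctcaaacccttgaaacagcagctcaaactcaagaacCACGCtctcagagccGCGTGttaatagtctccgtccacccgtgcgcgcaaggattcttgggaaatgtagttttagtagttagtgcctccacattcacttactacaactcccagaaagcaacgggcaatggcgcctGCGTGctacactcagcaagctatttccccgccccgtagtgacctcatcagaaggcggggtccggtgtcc

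In the Higd1a window, 2 copies of GCGTG, at -70 and -66 from the start, share a base and form the run GCGTGCGTG. That run, picked after the sequence was seen, is held on either strand by 0.4% of the 32851 promoter windows of that length. The Higd2a window holds 3 separate matches, at -204 (reverse strand), -189 and -69. The Lonp1 window holds 6, of which the ACGTG matches at -36 and -35 are the same palindromic stretch read on both strands, and the Ndufa4 window holds 0. At least 1 match of either motif is present in 38.6% of all windows, 2 or more, as in Higd1a, in 16.7% and 3 or more in 6.6%. Matches were thus present in Higd2a and Lonp1, which did not pass the test, as well as in Higd1a, and a match is a description of these letters, not a binding site.

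Cox4i1, the COX4 form of most tissues, had the smallest within-group SD of the 10 probe sets, 0.041 on the log2 scale. It read 7720, 7827 and 7988 in hypoxia and 7443, 7302 and 7834 in normoxia. The groups overlapped and differed by 0.060 on the log2 scale (SE 0.074, 95% interval -0.10 to 0.23, adjusted p = 0.798). As a fold, that interval runs from 0.93 to 1.17.

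Cox4i2, the form known from lung and from oxygen-limited cells, gave signals of 23.6, 21.8 and 3.3 in hypoxia and 10.2, 20.5 and 15.8 in normoxia. Hypoxia replicates 1 and 2 were the highest of the 6 arrays and hypoxia replicate 3 the lowest. At a geometric mean of 13.3 the probe set lay just under the filter of 14.1 and was not tested with the others. Fitted without a filter, its log2 fold change was -0.32 (SE 0.77, 95% interval -2.00 to 1.36, adjusted p = 0.949), and it turned to 0.61 without hypoxia replicate 3 (adjusted p = 0.864 with no filter; 0.766 with the filter, which it then passes). The log2 ratio of Cox4i2 over Cox4i1 within an array differed by -0.38 between the groups (exact permutation p = 0.9), and by 0.56 without hypoxia replicate 3. A shift between the COX4 transcripts was not detectable at this signal, and the interval for Cox4i2 is too wide to set it apart from no change or from a change of more than 1 log2 either way.

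Ndufa4 encodes the complex IV subunit of ordinary oxygen conditions. Its signal was 3107, 2992 and 2867 in hypoxia and 3048, 2632 and 2741 in normoxia, with overlapping groups and a log2 fold change of 0.093 (SE 0.096, 95% interval -0.12 to 0.31, adjusted p = 0.761).

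Ndufa4l2, its HIF-regulated relative, read 47.7, 30.8 and 3.0 in hypoxia against 4.2, 5.9 and 6.4 in normoxia. Hypoxia replicates 1 and 2 lay above every normoxia array and replicate 3 below every one. The normoxia signals are under the filter, near background, so no fold against them is given as measured. Its geometric mean of 9.42 kept it below the filter. Without a filter the fitted log2 fold change, which rests on those near-background signals, was 1.60 (SE 0.96, 95% interval -0.51 to 3.70, adjusted p = 0.721), and 2.82 without hypoxia replicate 3 (adjusted p = 0.187, unadjusted p = 0.00124). Leaving out the other hypoxia arrays gave 0.83 without replicate 1 and 1.14 without replicate 2. The within-array log2 ratio of Ndufa4l2 over Ndufa4 was higher in hypoxia by 1.51, with overlapping groups (exact permutation p = 0.4, or 0.6 adjusted over the 3 pairs).

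Both dim isoforms were thus lowest on the same array, and both spread more than is usual at their signal. The within-group SD of the log2 signal was 1.19 for Cox4i2 and 1.53 for Ndufa4l2, while the 5651 probe sets with geometric means between 8 and 16 had a median SD of 0.804. Hypoxia replicate 3 was the lowest hypoxia array for 7 of the 10 probe sets, among them Lonp1 and both dimmer Higd1a probe sets, for 5 of 8 HIF target genes listed for reference and for 37.5% of all probe sets tested. On the brightest Higd1a probe set it was the middle one. Among the normoxia arrays, replicate 1 was the lowest for Cox4i2, Ndufa4l2, Lonp1, Iscu and the Higd1a probe set 1416481_s_at. It was not the lowest normoxia array for the other probe sets of the 10. In tissues Cox4i2 and Ndufa4l2, like Higd1b, another HIGD gene, are known as pericyte genes. Of 8 pericyte and smooth muscle markers, only 1 (Notch3, named after its values were seen) lay above the filter. The summed signal of all 8 was 123 to 152 in hypoxia, 123 on replicate 3, and 82.1 to 100 in normoxia, without overlap. Among single probe sets tested, 7.48% were separated in this direction. Notch3 was the largest part, with 88.6 ± 29.6 in hypoxia (60.5 on replicate 3) and 48.7 ± 2.6 in normoxia (limma adjusted p = 0.276). Without Notch3, the summed signals of the groups overlapped. Higd1b itself read 4.43 ± 3.45 and 9.7 ± 8.72, below the filter. The part of such cells in the Ndufa4l2 signal was not tested.

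**Figure D3:**
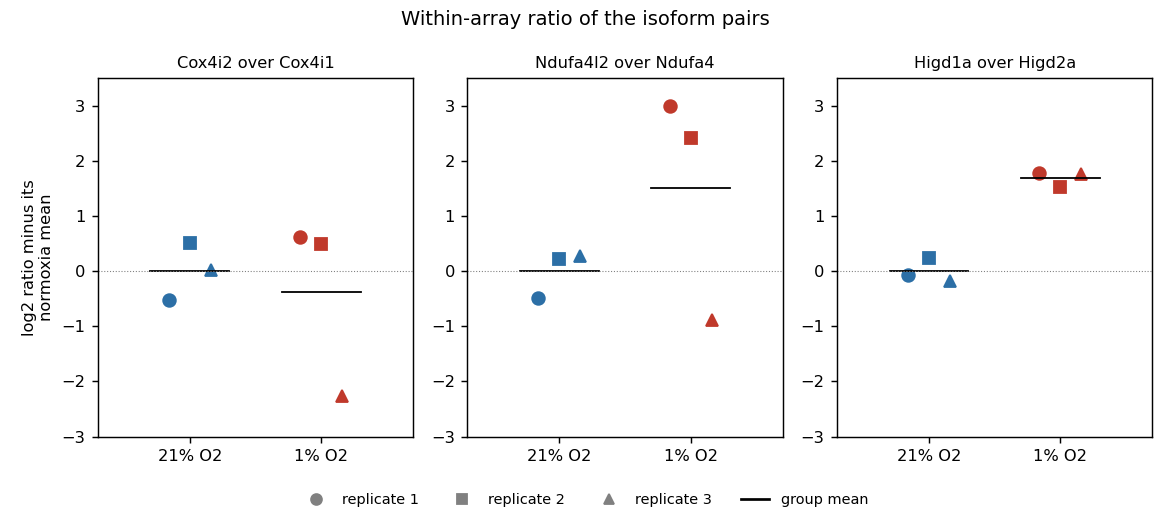
Within-array log2 ratio of each isoform pair, drawn as its difference from the normoxia mean of that pair, on the 3 normoxia arrays (blue) and the 3 hypoxia arrays (red); marker shape gives the replicate number and the bar the group mean. The Higd1a over Higd2a ratio is higher on all 3 hypoxia arrays, with group means 1.69 apart, while the other pairs have hypoxia replicate 3 below all normoxia arrays.

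Lonp1 encodes the ATP-dependent protease of the mitochondrial matrix, which clears damaged and surplus proteins. Its signal was 1136, 1017 and 708 in hypoxia and 448, 753 and 656 in normoxia. A single pair broke the separation, hypoxia replicate 3 lying under normoxia replicate 2. The log2 fold change was 0.63, or 1.55-fold (SE 0.22, 95% interval 0.13 to 1.13, unadjusted p = 0.0191), and did not pass (adjusted p = 0.347), in a table where 5.26% of probe sets had an unadjusted p under 0.05 on the higher side. It passed in 0 of 16 alternatives, with adjusted p from 0.107 to 0.664 and a log2 fold change from 0.41 without normoxia replicate 1 to 0.83 without hypoxia replicate 3.

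Iscu, the scaffold gene, gave hypoxia values of 469, 476 and 463, with a coefficient of variation of 1.35%, the lowest of the 10 probe sets, against 553, 653 and 581 in normoxia. All 3 hypoxia arrays were below all 3 normoxia arrays, as was the case for 9.06% of all probe sets tested. The log2 fold change was -0.34, a level of 78.9% of normoxia (SE 0.13, 95% interval -0.62 to -0.061, unadjusted p = 0.0221, where 5.64% of probe sets had one under 0.05 on the lower side), and did not pass (adjusted p = 0.363; from 0.179 to 0.739 over 16 alternatives, in 0 of which it passed). In human cells ISCU is known as a target of a hypoxia-induced microRNA, which these arrays did not measure.

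The other oxidase subunits did not pass in either direction. Of 13 other subunits measured, 0 passed the test in limma (3 had an unadjusted p under 0.05) and the median log2 fold change was 0.033 (-0.051 after quantile normalization), where the median over all 11332 genes was -0.040, 0.75% of genes passed and 12.4% had an unadjusted p under 0.05. The brightest, Cox7a2 and Cox6a1, stood at 0.11 and 0.020 on the log2 scale (adjusted p = 0.688 and 0.948). Cox6a2, the heart and skeletal muscle form of subunit 6a and named after its values were seen, had the lowest value of the list, with 600 ± 72.7 in hypoxia and 964 ± 199 in normoxia (log2 fold change -0.67, SE 0.17, adjusted p = 0.17). It passed without normoxia replicate 1 (adjusted p = 0.0324) and with arrays weighted by quality (0.0414). The highest, also named after its values were seen, was Cox6b2, a form known from testis, at 0.52 on dim signals of 84.9 ± 9.12 and 59.5 ± 7.81 (adjusted p = 0.38). Cox7c, named after its values were seen as well, read only 16.9 ± 7 in hypoxia and 20.9 ± 3.84 in normoxia, near the filter. Its change was therefore poorly measured (log2 fold change -0.36, SE 0.41).

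Among 19 genes that assemble the oxidase or bring it copper and heme, 0 passed. An unadjusted p under 0.05 was found for 2 of the 19, against 12.4% of all genes. Of the 19, 13 were below 0, where 55.6% of all genes were, and the median was -0.14. Cox17, a copper chaperone, had a log2 fold change of 0.051 on a signal of 3650 ± 155 in hypoxia (adjusted p = 0.865). Cox20, which stabilises a mitochondrially encoded core subunit, had one of -0.42 with 948 ± 26.6 against 1280 ± 226 (adjusted p = 0.312).

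Beside Lonp1, 15 genes of mitochondrial proteases and related peptidases were measured, the peroxisomal Lonp2 among them (named after its value was seen). None passed, and 2 had an unadjusted p under 0.05, as did 12.4% of all genes. Of the 15, 10 lay below 0 (55.6% over all genes) and the median was -0.17. The estimate for Lonp1 was above the highest of them, 0.18 for Yme1l1, named after its value was seen. Pmpcb, a subunit of the peptidase that trims imported proteins, gave 0.00059 and Immp1l 0.11 on the log2 scale (adjusted p = 0.999 and 0.857). Htra2, a protease of the intermembrane space named after its values were seen, was the lowest at -0.63 (184 ± 29.9 against 283 ± 16.7, adjusted p = 0.178), and passed only with arrays weighted by quality (0.0478).

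Beside Iscu, 13 iron-sulfur cluster genes were measured, of which 9 were below 0 (again beside 55.6% over all genes), with a median of -0.19. Again 0 passed (2 with an unadjusted p under 0.05, which 12.4% of all genes had). Those 2, named after their values were seen, were Nfs1, the desulfurase that supplies sulfur to ISCU, at -0.50 (231 ± 39 against 322 ± 22.2, adjusted p = 0.305), and Bola3, which acts late in the pathway, at -0.36 (adjusted p = 0.307). In both, the groups did not overlap, as was the case on the lower side for 9.06% of all probe sets tested. The chaperone Hspa9 and the glutaredoxin Glrx5, the brightest, had log2 fold changes of 0.0073 and -0.068.

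**Figure D4:**
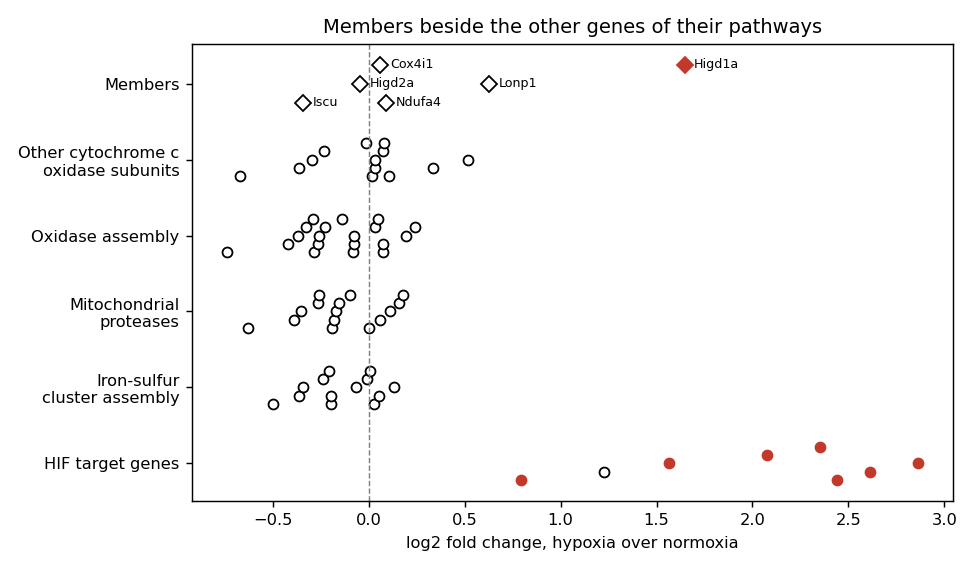
Log2 fold change of hypoxia over normoxia for the 6 genes above the filter (diamonds, Higd1a by its brightest probe set) and for the other measured genes of each pathway list (circles), 1 point per gene. Filled red symbols passed at an adjusted p under 0.05. Higd1a at 1.65 lies among the HIF target genes, 7 of 8 of which are filled (0.662% of all genes rose). The points of the other 4 lists are open and lie between -0.74 and 0.52.

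Transcripts of the COX4 regulators did not pass either (0 of 5). An unadjusted p under 0.05 was found for 2 of the 5, against 12.4% of all genes. The protein levels and activity of these regulators were not measured. Hif1a, the oxygen-regulated subunit of HIF-1, had a log2 fold change of -0.10 and its partner Arnt of -0.43 (adjusted p = 0.789 and 0.479). Epas1, which encodes HIF-2α, was dim and lower on every hypoxia array (33.8 ± 3.75 against 50.5 ± 6.62, log2 fold change -0.58, adjusted p = 0.412). Rbpj, which binds the oxygen-responsive element of human COX4I2, was higher on every hypoxia array (198 ± 21.2 against 147 ± 13.3, log2 fold change 0.43, adjusted p = 0.372). Groups were separated in this way in 9.06% of all probe sets tested on the lower side and in 7.48% on the higher side. Cxxc5, an inhibitor at that element, stood at 0.28 on the log2 scale (adjusted p = 0.8).

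Of the 8 HIF target genes, listed with earlier results of these data known, 7 rose, where 0.662% of all genes did. The median log2 fold change of the 8 was 2.21, against -0.040 over all genes. Those with the smallest adjusted p were Slc2a1 at 2.08, the mitophagy receptor gene Bnip3 at 2.87, the lactate dehydrogenase gene Ldha at 0.80 and Ankrd37, an ankyrin repeat gene, at 2.44. Vegfa, the eighth, did not pass (1.23, adjusted p = 0.0924). The genes whose log2 signal followed the brightest Higd1a probe set most closely over the 6 arrays were Slc2a1, the glucose transporter GLUT1 (r = 0.997), the secreted glycoprotein Stc1 (r = 0.994) and Grhpr, a glyoxylate reductase (r = 0.991). Grhpr rose by 1.42 on the log2 scale (SE 0.14, adjusted p = 0.00153), from a mean signal of 192 to 515. These values describe 6 arrays in 2 separated groups, and 95 of 11326 genes had r above 0.95.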

How the data were processed

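RNA of 6 HL-1 samples was measured on one-colour mouse arrays. The authors deposited 1 intensity per probe set and array, a linear MAS5 signal according to the submitters' processing notes, whose version is not given in the sources used here. MAS5 treats each array alone and is noisy near background; precision is limited by having 6 arrays. Signals of 0 (10 values) were set to 0.1, the smallest above 0, and log2 transformed. Probe sets with a mean log2 signal above the median of all 45037 were kept (22518) and hypoxia was compared with normoxia by limma 3.58.1 in R 4.3.3 (lmFit, eBayes with trend, two-sided), with Benjamini-Hochberg adjustment over all probe sets kept and a threshold of 0.05. Genes outside the 8 were represented by their brightest kept probe set with 1 symbol (11332 genes; annotation of 2016). Isoform ratios were compared by exact permutation of the 6 arrays. The code was tested on simulated data. The 8 genes, the pathway and marker lists, and the tests were chosen with earlier results of these data known. Named were all 8 genes; from each list, up to 4 genes that passed and the brightest 2 that did not; every measured COX4 regulator and other HIGD gene (Chchd2 and Higd1c were not analysed here); and the 3 genes closest to a member that passed; others are said to be named after their values were seen. Alternatives covered normalization, offset (2.9), filter, variance model, array weights, replicate block and leaving out each array. Fits of the dim isoforms that combine no filter with each other choice were added after the data were seen.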

Additional observations from a re-analysis of the deposited data

How the results depend on the processing

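Of the 8 genes, only Higd1a passed in the alternatives run, 16 for each of Cox4i1, Cox4i2, Ndufa4, Higd2a, Lonp1 and Iscu and 15 for Ndufa4l2; those of the dim isoforms mostly had no filter (lowest adjusted p 0.766 for Cox4i2 and 0.187 for Ndufa4l2). Higd1a on its brightest probe set kept a log2 fold change of 1.54 to 1.76 and missed the threshold only with eBayes without trend (1.65, adjusted p = 0.055). Its ratio over Higd2a moved to 1.91 with the mean of all probe sets (1.60 to 1.81 with 1 array left out). Near 0, signs turned for Cox4i1 after quantile normalization (-0.042) and Higd2a after median centring (0.065), and for Cox4i2 without hypoxia replicate 3 (0.61), which was the only array whose omission brought it above the filter. Median centring raised the median of all genes from -0.040 to 0.071 and the list medians to 0.14 for oxidase subunits, -0.029 for oxidase assembly, -0.057 for proteases and -0.083 for iron-sulfur genes. The subunit median was -0.051 after quantile normalization, the assembly median -0.18 with no filter or a filter at the 25th percentile, the iron-sulfur median -0.086 with array weights and the regulator median 0.090 with a filter at the 75th percentile. With 1 array left out these medians ranged from -0.0051 to 0.064 (subunits), -0.22 to -0.090 (assembly), -0.23 to -0.11 (proteases), -0.23 to -0.029 (iron-sulfur) and -0.21 to -0.055 (regulators), and called subunits from 0 to 1. With array weights 1 subunit and 1 protease were lower. Without trend 2 of the 8 HIF targets passed, and 5 to 8 with 1 array left out. Over all probe sets, 120 were higher and 17 lower; these became 16 and 2 without trend and 312 and 125 with array weights, 37 to 163 and 1 to 37 with 1 array left out, and 8 were lower after median centring. The cause of these moves was not tested.

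The replicate numbers shared by the groups did not pair the arrays: deviations of same-numbered arrays from their group means correlated at -0.0763, 0.207 and -0.136, and 1 of 3 hypoxia arrays correlated best with its own number. With the replicate number as a block, 5 probe sets were lower and the Higd1a calls held.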
